A study of Mus musculus with 5 samples.

Results

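The 6 genes described here encode the apical receptor machinery with which the proximal tubule takes up filtered protein and vitamin carriers: Lrp2, Cubn, Amn, Dab2, Clcn5 and Folr1. They were taken by symbol from a list drawn up with earlier results of these data known, and all 6 were found among the 28692 gene identifiers of each library. Their levels were read in proximal tubule cells, defined by unique molecular identifiers (UMIs, counts of captured RNA molecules) of Slc5a2, Slc7a13 or Gatm. These were 2596 of 3746 kept cells in sham, 397 of 2159 at day 2, 152 of 4287 at day 7 and 1057 of 3140 after reversal.

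The study profiled kidneys of C57/BL6 mice aged 8 weeks in a model in which 1 ureter is obstructed (unilateral ureteric obstruction, UUO) and the obstruction can later be reversed. The 4 groups were sham surgery at day 0, obstruction sampled at day 2 (UUO day 2) or at day 7 (UUO day 7), and reversed UUO, sampled at experimental day 14, which was 7 days past the reversal. No group carried a transgene or drug by the labels, and the fate of the opposite kidney is not stated. Each group was a single droplet 3' library of cells pooled from 3 mice, digested on ice and sorted for viability with DAPI. With 1 library per group there is no replicate and no test, and the condition cannot be told apart from the library. Every interval below covers counting error only and holds no spread between cells or mice. A Smart-seq2 sample of 768 wells mixed all time points and is not used here.

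Megalin (Lrp2) and cubilin (Cubn) are very large receptors of the brush border that bind filtered albumin, vitamin-binding proteins and hormones. Cubilin has no transmembrane segment of its own and reaches the surface together with amnionless (Amn). Dab2 is the cytoplasmic adaptor that couples megalin to clathrin, ClC-5 (Clcn5) is a chloride-proton exchanger needed for endosome acidification, and folate receptor 1 (Folr1) binds filtered folate. Loss of this pathway gives low-molecular-weight proteinuria, as in Donnai-Barrow syndrome (LRP2), Imerslund-Grasbeck syndrome (CUBN or AMN) and Dent disease (CLCN5).

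In the GRCm38 annotation (GENCODE M21) all 6 are protein-coding genes. Lrp2 spans chr2:69424340-69586065 on the minus strand with up to 79 exons, and Cubn spans chr2:13276338-13491813 on the minus strand with up to 67. Amn, with up to 12 exons, lies at chr12:111271095-111276426 on the plus strand. Dab2 lies at chr15:6299788-6440712 on the plus strand and Clcn5 at chrX:7153810-7319358 on the minus strand, each with up to 15 exons. Folr1 lies at chr7:101858331-101870788 on the minus strand and overlaps Anapc15 on the opposite strand, which had 317 UMIs in proximal tubule cells of the 4 libraries. Whether counting used strand is not given in the sources used here, so reads in that overlap could not be assigned with certainty.

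The 250 bases before the start of 4 members are shown because these genes fall into different patterns below: Lrp2, Amn and Cubn had their highest level in the proximal tubule of every library, and at day 2 and day 7 a larger share of their UMIs than of those of Dab2 lay there. Sequences are RefSeq promoters on GRCm38.p6, and capitals mark a GC box (GGGCGG on either strand) or an HNF1 half-site (GTTAAT on either strand). The windows are chr2:69586030-69586279 (minus strand) for Lrp2, chr12:111270846-111271095 (plus) for Amn, chr2:13491877-13492126 (minus) for Cubn and chr15:6386498-6386747 (plus) for the second of the 2 Dab2 starts.
Lrp2: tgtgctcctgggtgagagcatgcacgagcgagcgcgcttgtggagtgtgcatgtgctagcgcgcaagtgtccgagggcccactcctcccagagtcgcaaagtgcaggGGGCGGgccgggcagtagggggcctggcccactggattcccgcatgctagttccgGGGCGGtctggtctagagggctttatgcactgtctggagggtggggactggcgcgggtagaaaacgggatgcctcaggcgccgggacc
Amn: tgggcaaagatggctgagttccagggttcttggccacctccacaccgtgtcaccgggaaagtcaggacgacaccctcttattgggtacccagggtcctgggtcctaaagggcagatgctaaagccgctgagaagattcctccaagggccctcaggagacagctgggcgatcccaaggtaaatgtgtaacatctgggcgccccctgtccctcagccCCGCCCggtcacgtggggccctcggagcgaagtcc
Cubn: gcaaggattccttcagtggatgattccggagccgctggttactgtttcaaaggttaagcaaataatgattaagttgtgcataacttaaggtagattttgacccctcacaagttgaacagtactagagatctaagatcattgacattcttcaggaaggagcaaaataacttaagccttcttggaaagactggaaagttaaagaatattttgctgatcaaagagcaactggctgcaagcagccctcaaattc
Dab2: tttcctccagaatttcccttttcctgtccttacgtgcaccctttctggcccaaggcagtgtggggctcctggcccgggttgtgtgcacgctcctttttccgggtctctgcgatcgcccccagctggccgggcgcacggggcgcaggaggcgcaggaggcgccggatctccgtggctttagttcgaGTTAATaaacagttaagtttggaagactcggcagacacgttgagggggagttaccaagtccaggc
Lrp2 has 2 GC boxes, 143 and 88 bases before the start, in a window of 66.4% GC. Amn has 1 GC box 35 bases before the start in a window of 61.2% GC, and neither motif was found in the Cubn window, which is 39.6% GC. The Dab2 window shown carries 1 HNF1 half-site 65 bases before the start, and that of the other Dab2 start, at 36.8% GC, held neither motif. GC boxes occur in 32.7% of 32851 promoter windows of this length and the half-site in 6.43%, so a match is a description and not a binding site. Longer motifs, an HNF4 direct repeat (CAAAGTCCA, in 0.384% of windows) and the HNF1 palindrome GTTAATNATTAAC (in 0.00913%), which contains the half-site, were found in no window of the members. Clcn5, whose 2 windows are not shown, has 1 GC box 114 bases before the start in the first (52.4% GC). The second (41.2% GC) held neither motif. Whether a motif goes with the location of the UMIs was not tested. Folr1 was not among the promoters used here.

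The gate was first checked against 12 proximal tubule genes it does not use, such as the phosphate transporter Slc34a1 and Miox. All 12 were higher inside the gate than in the other kept cells of every library. Their summed level in the gate was 16301 CPM (UMIs per 1000000 UMIs of the same cells) in sham, 8981 at day 2, 8119 at day 7 and 13069 after reversal. Proximal tubule cells were therefore recognisable in every library, with a lower level of these genes during obstruction. Of the gate genes Gatm was lower too, being at 2052 CPM in sham, 1046 at day 2, 617 at day 7 and 2010 after reversal. Slc5a2 was at 455, 351, 185 and 479 CPM in that order. Slc7a13 was at 147, 4.59, 170 and 74.9 CPM, so it was not lower at day 7. Cells that had lost the gate genes could not be counted. The median UMIs per gated cell were 2769.5, 4895, 6565.5 and 4815 in the same order, and the median mitochondrial share was 34.8%, 24.6%, 15.7% and 31.2%.

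RNA of other cells was present in the gate. The 6 pan leukocyte genes summed to 38.7 CPM in sham, 563 at day 2, 1492 at day 7 and 429 after reversal. Cells with more leukocyte than gate UMIs numbered 5, 22, 66 and 38. None of the 6 genes was at 0 in the gate of any library. At day 7 these cells made up 66 of only 152, so the level of each member in all gated cells of day 7 is also given without them. The other day 7 values below include them unless stated. The proximal tubule-defining genes and the leukocyte genes both moved with time, and their part in the results beyond the values shown was not tested.

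Megalin was the member whose level differed most from sham at day 2. Lrp2 was at 698 CPM in sham (95% Poisson interval 681 to 716), 488 at day 2 (460 to 516), 431 at day 7 (395 to 471) and 689 after reversal (669 to 710). The sham and reversed intervals overlapped, and both obstructed libraries lay below them. Without the leukocyte-marked cells the levels were 699, 536, 688 (620 to 762) and 727 CPM. The day 2 level then stayed below sham, whereas the day 7 level was close to that of sham and reversal. Leaving out cells this way depends on the gate genes, so it favours cells rich in them. Gatm and Slc5a2 were themselves lower at day 7 than in sham, whereas Slc7a13 was not. With at most 20% mitochondrial UMIs Lrp2 was at 724 CPM in sham (662 to 791), 396 at day 2, 366 at day 7 and 597 after reversal (561 to 634). With a gate on the 12 reference genes it was at 662 CPM in sham (646 to 678), 398 at day 2, 351 at day 7 and 518 after reversal (503 to 533). Under both settings the reversed library lay below sham and above the obstructed ones, so the overlap of sham and reversal depends on the gate and the mitochondrial limit. Among cells with Slc5a2 and without Slc7a13, Lrp2 was at 711 CPM in sham, 515 at day 2, 484 at day 7 (63 cells) and 712 after reversal.

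Cubilin and its partner differed less. Cubn was at 118 CPM in sham (110 to 125), 101 at day 2 (88.6 to 114), 81.8 at day 7 (66.2 to 100.01) and 107 after reversal (99.2 to 116). The interval of day 7 lay below that of sham, but without the leukocyte-marked cells the day 7 level was 120 CPM (92.5 to 153). Amn was at 185 CPM in sham (176 to 194), 161 at day 2 (146 to 178), 157 at day 7 (135 to 181) and 204 after reversal (193 to 215). Its 4 intervals overlapped between neighbours in time except that day 7 and reversal were apart. Without those cells Amn was at 183 CPM at day 7, with an interval (148 to 222) that held the sham level. At day 2, without them, Cubn was at 110 CPM (96.7 to 125) and Amn at 177 (160 to 196), and both intervals held the sham level.

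The adaptor Dab2 differed little between libraries when all gated cells were counted. It was at 354 CPM in sham (341 to 366), 388 at day 2 (363 to 414), 347 at day 7 (314 to 383) and 370 after reversal (355 to 385). The 4 intervals overlapped one another. Without the leukocyte-marked cells Dab2 was at 354 CPM in sham, 414 at day 2 (387 to 442), 461 at day 7 (406 to 522) and 387 after reversal (371 to 403). The 3 later libraries then lay above sham, and Dab2 differed more than Cubn, which was at 118, 110, 120 and 113 CPM. With at most 20% mitochondrial UMIs the direction turned: Dab2 was at 502 CPM in sham (451 to 558) and at 356, 347 and 388 later, each with an interval below that of sham.

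The endosomal exchanger Clcn5 was at 57.2 CPM in sham (52.3 to 62.5), 43.0 at day 2 (35.1 to 52.1), 45.6 at day 7 (34.2 to 59.7) and 62.3 after reversal (56.3 to 68.7). The low counts behind the obstructed libraries, 103 and 53 UMIs, left wide intervals, and that of day 2 ended just under that of sham. Folr1 was at 324 CPM in sham (312 to 336), 248.6 at day 2 (229 to 269), 282 at day 7 (253 to 315) and 329 after reversal (315 to 343). The day 2 interval of Folr1 was below those of sham and reversal. Without the leukocyte-marked cells Clcn5 was at 53.5 and Folr1 at 384 CPM at day 7. At day 2 Clcn5 was then at 47.9 CPM (39.1 to 58.1), which overlapped the interval of sham, and Folr1 at 272 (251 to 295), which did not.

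**Figure D1:**
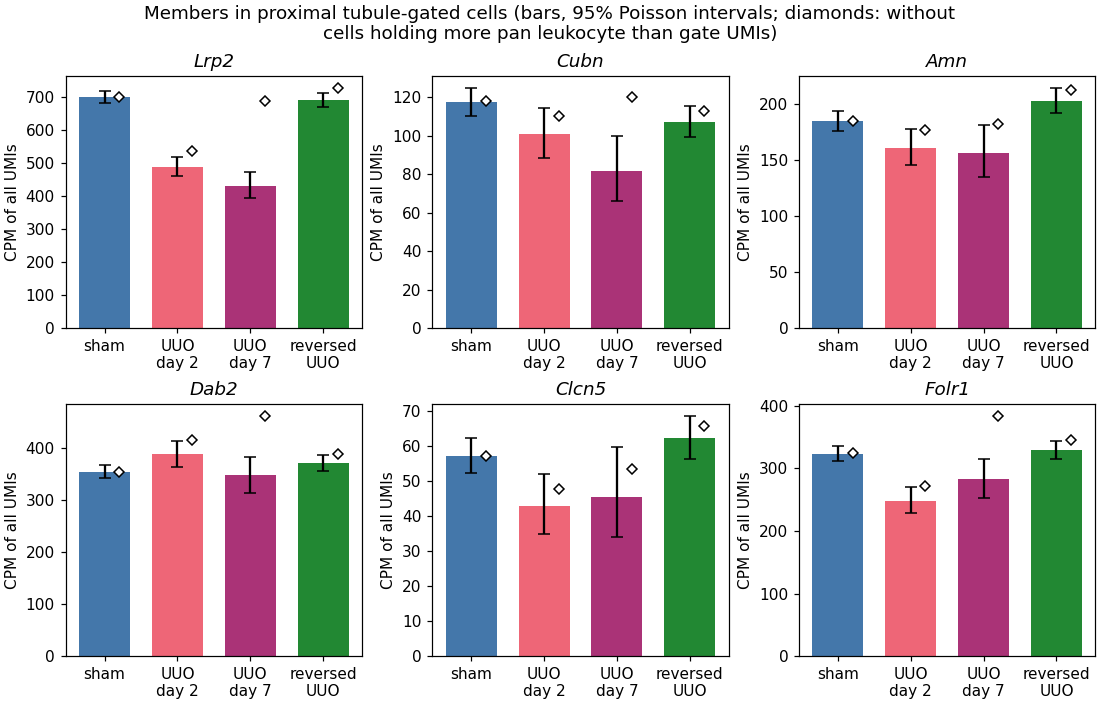
Level of each member in proximal tubule-gated cells, in CPM of all UMIs, for the 4 libraries; bars are the pooled cells of 1 library, whiskers the 95% Poisson interval, and diamonds the level without cells that held more pan leukocyte than gate UMIs. Lrp2 is lower at day 2 (488 CPM) than in sham (698 CPM) with both cell sets, whereas at day 7 the diamond of Lrp2 (688 CPM) lies far above its bar (431 CPM).

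Differences between libraries are given as log2 ratios of CPM with 1 CPM added, which understates low genes, with exact binomial 95% intervals. At day 2 against sham, Lrp2 was lower by -0.52 (-0.61 to -0.43), which is 1.43-fold. Clcn5 was at -0.41 (-0.72 to -0.10), Folr1 at -0.38 (-0.51 to -0.25), Cubn at -0.22 (-0.42 to -0.02) and Amn at -0.20 (-0.36 to -0.04). Dab2 alone was higher, at 0.13 (0.03 to 0.24), but it was at -0.09 when mitochondrial UMIs were left out of the denominator and at -0.28 with edgeR's TMM scaling. The other 5 members were lower under all 3 scalings. Without the leukocyte-marked cells the ratios were -0.38 for Lrp2, -0.25 for Clcn5 and Folr1, -0.10 for Cubn, -0.06 for Amn and 0.23 for Dab2.

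The scaling moved all genes, so each ratio was also set against the median of all genes tested. That median was 0.30 for day 2 against sham with all UMIs, 0.09 with non-mitochondrial UMIs and -0.09 with TMM. A scaling moves a gene and the median nearly alike, so the value relative to the median is given for all UMIs alone. It was -0.82 for Lrp2, -0.70 for Clcn5, -0.68 for Folr1, -0.52 for Cubn, -0.49 for Amn and -0.17 for Dab2.

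No member passed a 2-fold difference at day 2, against 11.4% of 9767 genes that were at least 2-fold higher and 1.86% at least 2-fold lower. When cells with more markers of another class were kept in the gate, 4 members were past 2-fold lower: Lrp2 at -1.47, Folr1 at -1.30, Amn at -1.17 and Cubn at -1.16. No share of all genes is given for that gate, so the count cannot be judged. That gate took 666 cells at day 2 in place of 397, and 1075 at day 7 in place of 152. The added cells held at least as many marker UMIs of another class as gate UMIs. Values from that gate therefore do not describe tubule cells alone. With the gate used throughout, the median of the 6 was -0.30, against -0.75 for the 12 proximal tubule reference genes. Of those 12, 4 were past 2-fold lower. Per 1000 UMIs of those 12 genes, the gate held 42.8 Lrp2 UMIs in sham, 54.3 at day 2, 53.1 at day 7 and 52.7 after reversal. For Dab2 these values were 21.7, 43.2, 42.7 and 28.3, and for Amn 11.3, 18.0, 19.3 and 15.6. Against other proximal tubule RNA the members were thus higher, not lower, in the 3 later libraries than in sham.

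From day 2 to day 7 no member passed 2-fold in either direction, beside 10.1% of genes higher and 1.91% lower. The gate that kept cells with other markers put 4 past it, and no share of all genes is given for that gate. With the gate used throughout, Lrp2 was at -0.18 (-0.33 to -0.02) and was the only member whose interval left out 0. Its sign turned without the leukocyte-marked cells, to 0.36. Cubn was at -0.30, Dab2 at -0.16, Amn at -0.04, Clcn5 at 0.09 and Folr1 at 0.18.

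After reversal all 6 members were above day 7: Lrp2 by 0.67 (0.54 to 0.81), Clcn5 by 0.44 (0.03 to 0.87), Cubn by 0.38 (0.08 to 0.71), Amn by 0.37 (0.15 to 0.61), Folr1 by 0.22 (0.05 to 0.39) and Dab2 by 0.09 (-0.06 to 0.25). No member was past 2-fold, while 3.04% of genes were at least 2-fold higher and 11% at least 2-fold lower. With TMM scaling Lrp2 was past it, at 1.01, and with the gate that kept cells with other markers 5 members were, Lrp2 being at 2.31. The shares of all genes are for the gate and scaling used throughout, and none is given for these settings. The median of the 6 was 0.38 and that of all genes -0.24. Without the leukocyte-marked cells the median of the 6 was -0.0047, with Folr1 at -0.15 and Dab2 at -0.25. Cubn was then at 113 CPM after reversal and 120 at day 7, and after thinning its ratio was -0.46. In early cells, with Slc5a2 and without Slc7a13, Lrp2 was at 712 CPM after reversal and 484 at day 7, and Cubn at 116 and 87.6, whereas Dab2 was at 395 and 457 and Folr1 at 357 and 363. Amn was at 219 and 209 CPM and Clcn5 at 67.3 and 60.5 in the same cells, so 4 members were above day 7 and 2 below. The day 7 library enters this comparison and the one before it, so the 2 are not independent.

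Against sham, the reversed library lay within 0.14 for every member with the gate and scaling used throughout. Lrp2 was at -0.02 (-0.08 to 0.04), Folr1 at 0.02 (-0.06 to 0.11), Dab2 at 0.06 (-0.01 to 0.14), Clcn5 at 0.12 (-0.07 to 0.31), Cubn at -0.13 (-0.27 to 0.01) and Amn at 0.14 (0.03 to 0.24). With the gate on the 12 reference genes Lrp2 was at -0.35, Cubn at -0.45 and Amn at -0.18, and with cells of other markers kept they were at -0.62, -0.74 and -0.44. Amn also turned to -0.20 with at most 20% mitochondrial UMIs and to -0.25 with TMM. None was past 2-fold, beside 13.4% of 10758 genes higher and 0.13% lower. The median of all genes was 0.30 here, and the median of the 6 was 0.04 with all UMIs, -0.09 with non-mitochondrial UMIs and -0.35 with TMM. The 12 reference genes had a median of -0.30 with all UMIs, and 11 of them were lower than in sham.

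**Figure D2:**
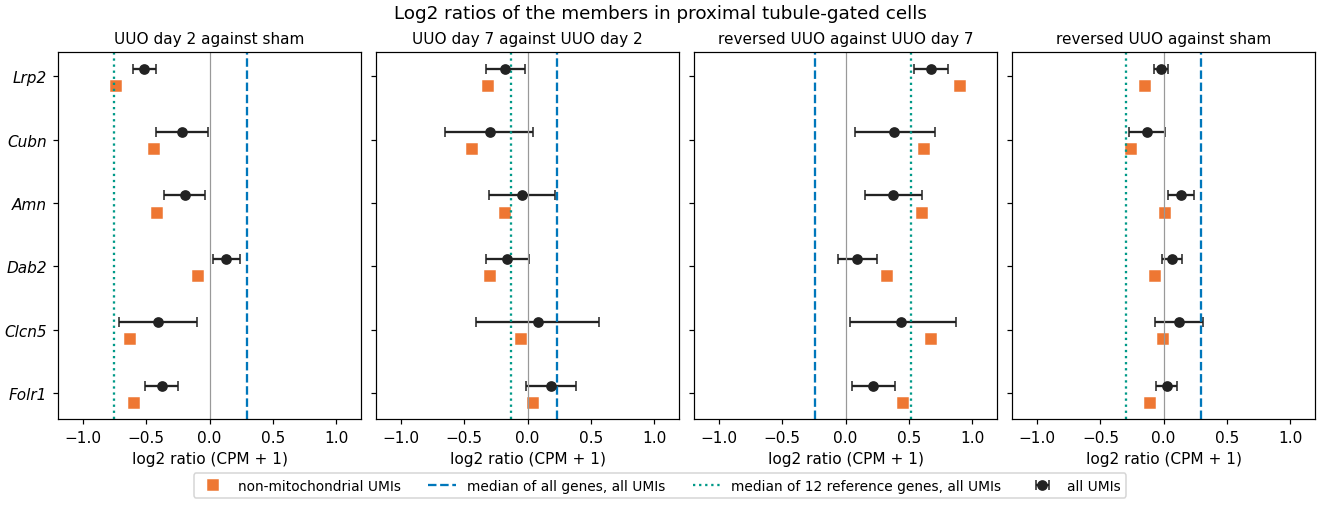
Log2 ratio of each member (CPM with 1 added) in the 4 comparisons; circles with exact 95% intervals use all UMIs, squares use non-mitochondrial UMIs, and vertical lines give the medians of all genes and of the 12 reference genes. At day 2 Lrp2 is at -0.52 and the reference genes at -0.75, while the median of all genes is 0.30.

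Depth differed between the libraries, so each cell was also thinned to 1000 UMIs, which left out no gated cell. The share of gated cells with an Lrp2 UMI was then 44.5% in sham (exact 95% interval 42.5 to 46.4), 36.0% at day 2 (31.3 to 41.0), 33.6% at day 7 (26.1 to 41.7) and 45.6% after reversal (42.6 to 48.7). Unthinned, these shares were 75.9%, 79.8%, 71.7% and 85.4%. At equal depth fewer cells of the obstructed kidneys thus had an Lrp2 UMI, beside 5.22%, 2.99%, 0.969% and 3.05% of endothelial cells, which should lack megalin and had median depths of 2359.5, 3751, 3561 and 3855 UMIs. For Dab2 the thinned shares were 27.4%, 29.97%, 27.0% and 28.4%, and for Folr1 26.5%, 21.2%, 25.0% and 28.5%. The intervals of each of these 2 genes overlapped between neighbouring time points. Clcn5 was found in 4.93%, 5.04%, 5.92% and 6.24% of thinned cells, so its lower CPM at day 2 had no counterpart in the share of cells. For Cubn these shares were 10.2%, 10.8%, 11.8% and 10.3%, and for Amn 16.99%, 17.9%, 11.2% and 19.0%, so neither was below sham at day 2. Thinned to 500 non-mitochondrial UMIs, Cubn was found in 8.17% of cells in sham and 5.04% at day 2, and Amn in 14.2% and 9.82%.

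The members were then compared between early cells, with Slc5a2 but no Slc7a13 UMIs, and late cells, with Slc7a13 but no Slc5a2. Slc5a2 encodes the glucose transporter of the early convoluted tubule and Slc7a13 a transporter of the straight part. There were 1490 early and 270 late cells in sham, 289 and 3 at day 2, 63 and 32 at day 7, and 769 and 89 after reversal. With 11 Slc7a13 UMIs in all gated cells of day 2, no ratio was formed there. Both cell sets come from the same library, so day and pool are shared.

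Dab2 was the member with the clearest difference along the tubule. In sham it was at 387 CPM in early and 279 CPM in late cells, a log2 ratio of 0.47 (0.28 to 0.66), and after reversal at 395 and 276 CPM, a ratio of 0.51 (0.27 to 0.77). At day 7 it was at 457 and 373 CPM, with an interval of -0.08 to 0.68. Both intervals of sham and reversal left out 0, and with at least 2 UMIs of the segment gene the sham ratio was 0.73.

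With all UMIs Lrp2 was nearly even along the tubule, at 711 CPM in early and 691 CPM in late cells of sham (ratio 0.04, -0.08 to 0.16) and at 712 and 726 CPM after reversal (-0.03, -0.19 to 0.13). With non-mitochondrial UMIs the sham ratio of Lrp2 was 0.13 (0.011 to 0.25), and 0.21 (0.07 to 0.35) with at least 2 UMIs of the segment gene, so both intervals left out 0. Cubn and Amn were higher in early cells of sham, by 0.31 (0.003 to 0.63) and 0.27 (0.02 to 0.52), and after reversal at 0.12 and 0.17 with intervals that held 0. Folr1 was at -0.17 in sham (-0.34 to 0.001) and at 0.26 after reversal (0.02 to 0.51), but at 0.18 (-0.08 to 0.45) after reversal with at least 2 UMIs of the segment gene. The difference of Folr1 between those libraries was not tested.

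**Figure D3:**
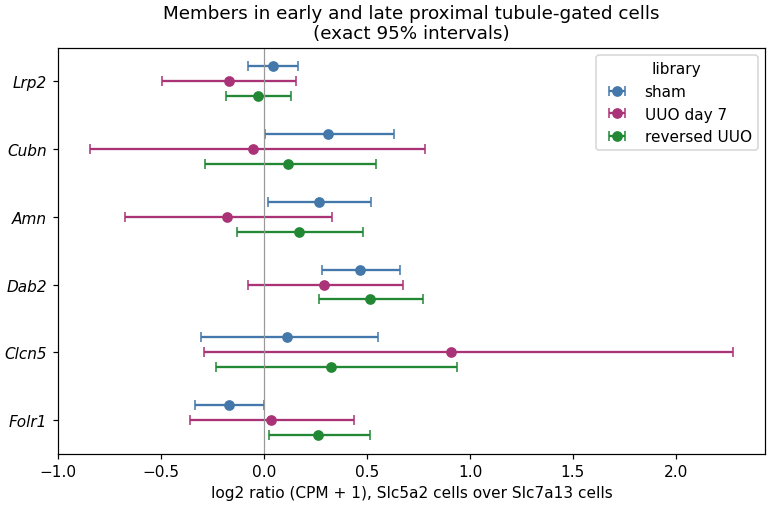
Log2 ratio of each member (CPM with 1 added) in early cells (Slc5a2) over late cells (Slc7a13) of the same library, with exact 95% intervals; day 2 is missing because it had 3 late cells. Dab2 lies to the right of 0 in sham (0.47) and after reversal (0.51), and with this denominator Lrp2 stays near 0 in both.

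Gated cells with a UMI of Havcr1 or Krt20, genes that mark injured tubule, numbered 4 in sham, 54 at day 2, 38 at day 7 and 15 after reversal. At day 2 Lrp2 was at 408 CPM in the 54 marked and 507 CPM in the 343 unmarked cells, a log2 ratio of -0.32 (-0.54 to -0.09). After reversal it was at 538 and 692 CPM (-0.36, -0.72 to -0.03). In both libraries the marked cells had a lower CPM of Lrp2 than the unmarked ones, and a lower summed CPM of the reference genes. The latter were at 7404 against 9374 CPM at day 2 and 8535 against 13168 after reversal. Leukocyte RNA was also lower in marked cells, at 343 against 618 CPM at day 2 and 280 against 433 after reversal. Their median UMIs were higher, at 7374.5 against 4722 and 6917 against 4804.5. The part of these values in the Lrp2 difference was not tested. For other members the values ran in either direction. At day 2 Amn was at 190 and 154 CPM (0.30, -0.05 to 0.64), and after reversal Folr1 was at 428 and 327 CPM (0.39, -0.015 to 0.76). Apart from Lrp2, every member had an interval that held 0 in both libraries.

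At day 7 the marked cells were higher for 4 members with intervals that left out 0. These intervals count UMIs and hold no spread between the 38 marked or the 114 unmarked cells of this 1 library. Lrp2 was at 402 CPM in marked and 446 CPM in unmarked cells, with an interval of the ratio that held 0 (-0.43 to 0.13). Amn was at 247 and 112 CPM (1.13, 0.70 to 1.56), Clcn5 at 72.7 and 32.2 CPM (1.15, 0.34 to 1.97), Folr1 at 353 and 247 CPM (0.51, 0.18 to 0.83) and Dab2 at 402 and 320 CPM (0.33, 0.03 to 0.63). Cubn was at 90.9 and 77.3 CPM, with an interval that held 0 (-0.41 to 0.85). The marked cells also had less leukocyte RNA, 724 against 1874 CPM, and more UMIs, a median of 9244 against 5508.5. The part of these values in the differences was not tested, and the reference genes stood at 8166 and 8096 CPM.

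Other genes of endocytosis were read from 5 lists, also written with earlier results known. Of 14 coat and adaptor genes none was past 2-fold at day 2 against sham, their median being 0.21 beside 0.30 for all genes. Among all genes 11.4% were at least 2-fold higher there and 1.86% at least 2-fold lower. Of 14 chaperone and recycling genes none was past 2-fold either (median 0.23, with 10 higher and 4 lower), nor was any of 14 measured genes of endosome acidification (median 0.08) or of 6 transcription regulators (median 0.02). Lrpap1, the chaperone of megalin, was at 315 CPM in sham, 226 at day 2, 227 at day 7 and 322 after reversal, and Hnf4a, a regulator of proximal tubule genes, at 185, 142, 127 and 154. Both were picked out after their values were seen, and Lrpap1, at -0.48 for day 2 against sham, was the lowest of its list.

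Among 6 measured genes of vitamin and ligand handling, 1 was past 2-fold lower and 1 past 2-fold higher at day 2, beside 1.86% and 11.4% of all genes. Tcn2, the plasma carrier of vitamin B12, which megalin takes up, was at 931 CPM in sham, 417 at day 2, 355 at day 7 and 812 after reversal. Its ratio was -1.16 at day 2 against sham (-1.25 to -1.06) and 1.19 in reversed UUO against day 7 (1.05 to 1.34). Legumain (Lgmn), a lysosomal protease, was at 520, 1044, 562 and 520 CPM, with a ratio of 1.00 at day 2 (0.93 to 1.08). This was just past the limit, and with non-mitochondrial UMIs its ratio was 0.78.

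In day 7 against day 2 no gene of the 5 lists was past 2-fold, beside 10.1% of all genes higher and 1.91% lower. In reversed UUO against day 7 the acidification, ligand and regulator lists each had 1 gene past 2-fold higher and the recycling list 1 lower, beside 3.04% and 11% of all genes. In reversed UUO against sham the coat and acidification lists each had 1 higher, beside 13.4% of all genes. Maf, a transcription factor, was at 570 CPM in sham, 615 at day 2, 332 at day 7 and 697 after reversal, which is 1.07 for reversed UUO against day 7. Ap2b1, a subunit of the clathrin adaptor AP-2, was at 24.6, 44.2, 68.9 and 53.7 CPM, or 1.098 for reversed UUO against sham. Appl1, an early endosome protein, was at 13.7, 20.02, 39.6 and 18.8 CPM, or -1.04 for reversed UUO against day 7. Atp6v0c, a proton pump subunit, had 42 UMIs after reversal, 10 in sham and 1 at day 7, with ratios of 2.04 (0.33 to 2.93) against day 7 and 1.83 (1.16 to 2.42) against sham. Day 7 values of these genes include the leukocyte-marked cells.

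Kept cells outside the gate were given to the class whose marker list had most UMIs. In sham, 89.7% of all Lrp2 UMIs lay in gated cells, and this share was 63.3% at day 2, 48.8% at day 7 and 87.2% after reversal. Cubn (92.3%, 66.7%, 50% and 87.4%) and Amn (90.5%, 64.2%, 45.6% and 85.4%) followed the same course, along with the share of kept cells in the gate, which was 69.3%, 18.4%, 3.55% and 33.7%. Folr1 was close to them at 86.9%, 50.4%, 38.3% and 80.0%.

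Most Dab2 and Clcn5 UMIs of the obstructed libraries lay outside the gate, which there held a smaller part of the kept cells than in sham. Gated cells held 85.7% of Dab2 UMIs in sham but 22.5% at day 2, 5.88% at day 7 and 50.3% after reversal. Phagocyte-marked cells held 1.41%, 52.2%, 72.7% and 24.2% of them. They numbered 54, 484, 2207 and 552 of the 3746, 2159, 4287 and 3140 kept cells. For Clcn5 the gate held 79.0%, 19.3%, 7.13% and 33.0%, and intercalated-marked cells 8.52%, 39.8%, 42.5% and 48.5%. Intercalated-marked cells numbered 47, 146, 141 and 114. In both obstructed libraries the gate thus held the smaller part of the UMIs of these 2 genes. A share of UMIs depends on the number of cells of a class as well as on its level. These shares therefore do not show a change of level, and the levels by class are given below.

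**Figure D4:**
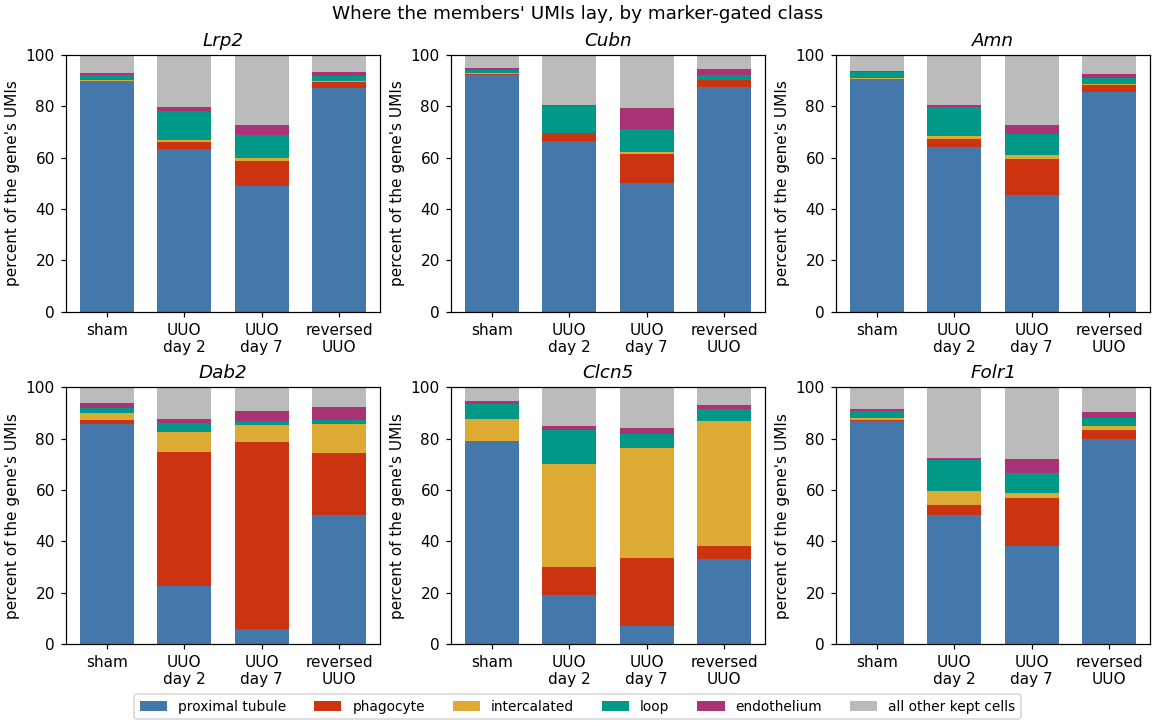
Percent of each member's UMIs in kept cells that lay in proximal tubule-gated, phagocyte, intercalated, loop and endothelial cells or in all other kept cells, for the 4 libraries. Lrp2, Cubn and Amn stay at 45.6% or more in gated cells in every library, while 72.7% of Dab2 UMIs lie in phagocytes at day 7 and 48.5% of Clcn5 UMIs in intercalated cells after reversal. The shares also depend on how many cells of each class were kept.

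Free RNA from broken tubule cells reaches every droplet, so each class was read per UMI of the 12 reference genes and set against the gate of the same library. Free RNA with the make-up of the gate alone would give a value near 1, whereas free RNA of other classes need not. A value above 1 therefore does not by itself mark a class's own RNA. For Lrp2 the value lay between 0.37 and 1.37 in the 9 other marked classes of at least 30 cells, for Cubn between 0 and 2.13 and for Amn between 0.27 and 1.89. For Folr1 it ran from 0.71 to 5.28. Within these ranges Lrp2 in phagocytes was always under 1, at 0.53 to 0.69, and Cubn in endothelium of day 7, with 16 UMIs, was the highest at 2.13. When cells outside the gate needed at least 4 marker UMIs, Lrp2 in neutrophils of day 7 was at 2.01 (37 UMIs). Whether the UMIs outside the gate were free RNA was not tested. Lrp2 in loop cells, for example, was at 153 CPM in sham and 56.9 at day 7, with values of 0.57 to 0.90. With at least 4 marker UMIs these levels were 89.1 and 35.5 CPM, with values of 0.46 to 0.91.

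Dab2 stood above 1 in phagocytes, at 6.33 to 33.5 times the gate's value. Its level there was 258 CPM in the 54 cells of sham (192 to 340), 397 in 484 cells at day 2 (380 to 414), 322 in 2207 cells at day 7 (313 to 331) and 260 in 552 cells of reversed UUO (245 to 275). Day 2 was above day 7 by 0.30 and day 7 above reversal by 0.31 on the log2 scale, with intervals that left out 0. Sham, with 51 UMIs, could be placed only below day 2. Endothelial cells, with 108, 89.4, 115 and 115 CPM, had 2.73 to 8.67 times the gate's value. T and natural killer (NK) cells, at 35.4 to 75.1 CPM, had 1.49 to 4.27 times it. Neutrophils, at 113 to 135 CPM, had 1.45 to 3.12 times it.

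Intercalated cells, the acid-base cells of the collecting duct, carried both Dab2 and Clcn5. Dab2 was at 271 CPM in sham (47 cells), 223 at day 2 (146 cells), 355 at day 7 (141 cells) and 437 after reversal (114 cells). Reversed UUO against sham was 0.69 (0.37 to 1.01). This ratio was 0.51 with non-mitochondrial UMIs and 0.73 without leukocyte-marked cells. The pan leukocyte genes summed to 19.8, 282, 725 and 309 CPM in intercalated cells, in the order of the libraries. Their median mitochondrial share was 25.2%, 12.8%, 9.37% and 15.9%, and the part of these values was not tested. Per reference UMI these cells had 5.56 to 55.8 times the gate's Dab2, 19.3 to 293 times its Clcn5 and 1.83 to 5.28 times its Folr1. The median of all 6117 genes tested there was 0.21.

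Clcn5 in intercalated cells was at 152 CPM in sham (115 to 199), 143 at day 2 (125 to 164), 245 at day 7 (219 to 274) and 482 after reversal (443 to 523). The reversed library was above each of the others and day 7 above day 2, with no overlap of the intervals. Reversed UUO was 3.15-fold above sham, a log2 ratio of 1.65 (1.25 to 2.08), while 11.8% of genes tested in these cells were at least 2-fold higher. With non-mitochondrial UMIs the ratio was 1.47, and without leukocyte-marked cells 1.70. After thinning to 1000 UMIs, 8.51% of intercalated cells had a Clcn5 UMI in sham (exact 95% interval 2.37 to 20.4), 10.96% at day 2, 17.02% at day 7 and 38.6% after reversal (29.6 to 48.2). The unthinned shares were 46.8%, 63.0%, 66.7% and 81.6%, and thinned endothelial cells had at most 2.40%.

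The make-up of the intercalated cells was looked at next, since acid-secreting type A cells express Slc4a1 and other types Slc26a4 and Slc4a9. Among cells with more Slc4a1 UMIs (15, 23, 18 and 27 cells) Clcn5 was at 233 CPM in sham, 287 at day 2, 348 at day 7 and 622 after reversal. Among those with more Slc26a4 and Slc4a9 UMIs (27, 102, 79 and 69 cells) it was at 134, 126, 224 and 377 CPM. Clcn5 was higher after reversal than in sham in both, with ratios of 1.41 (0.76 to 2.14) and 1.49 (0.97 to 2.05). With non-mitochondrial UMIs these ratios were 1.17 and 1.33. The sham values rest on 21 and 33 Clcn5 UMIs. Both kinds of cells come from the same libraries, so the 2 ratios are not independent. The part of the make-up in the difference was not tested.

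**Figure D5:**
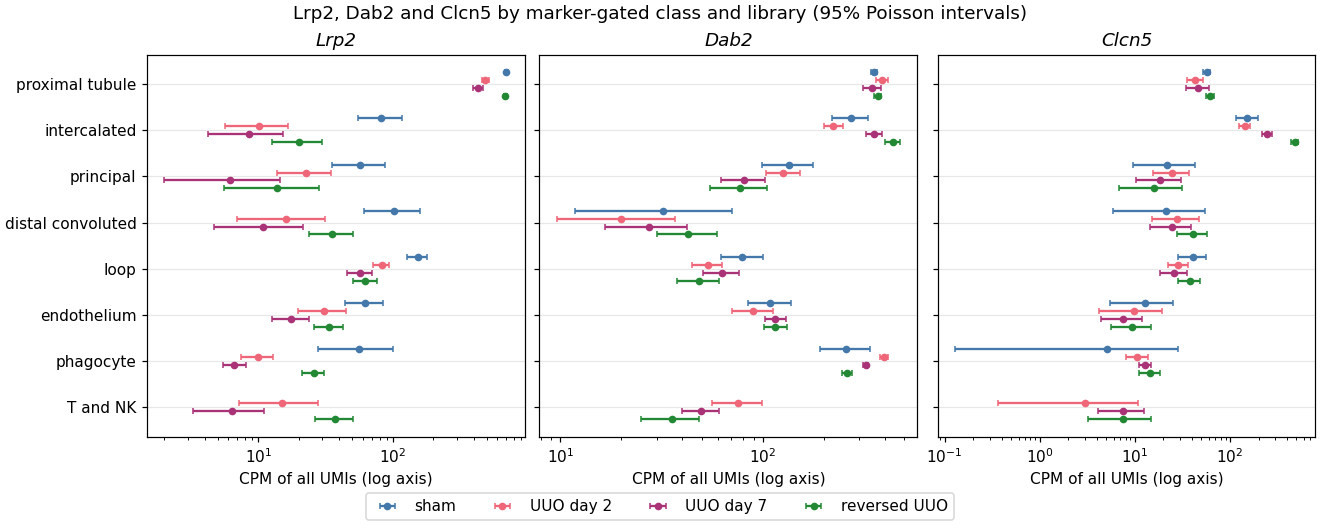
Levels of Lrp2, Dab2 and Clcn5 in CPM of all UMIs (log axis) in marker-defined classes of at least 30 cells, by library, with 95% Poisson intervals. Lrp2 is highest in the proximal tubule of every library, Dab2 reaches 397 CPM in phagocytes, and Clcn5 is highest in intercalated cells, at 482 CPM after reversal.

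Across 35 units of class and library with at least 30 cells, Lrp2, Cubn, Amn and Folr1 were alike, and Dab2 and Clcn5 were like neither these nor each other. Pearson's r of log2(CPM + 1) was 0.89 for Lrp2 with Cubn, 0.93 with Amn and 0.90 with Folr1. Dab2 and Clcn5 had r between 0.09 and 0.38 with the other members and with each other. Units of 1 library share depth and free RNA, and 1 class enters several times, so these values describe location.

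The genes most like Lrp2 among 12293 compared included Pck1 (r = 0.97), Pdzk1 (0.97) and Tmem27 (0.96). Those most like Dab2 included B3galnt1 (0.83), Uap1l1 (0.79), Epn1 (0.73) and Ctbs (0.71), with a lower likeness in each. Epn1 encodes epsin, a clathrin adaptor.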

How the data were processed

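For 4 droplet libraries the authors deposited whole-number UMI counts by gene and barcode, not normalized. Cell Ranger and STAR with GRCm38 and mm10 appear in the submitters' processing notes, without versions or roles. The text prints no other deposited unit. Sham, day 2, day 7 and reversed UUO held 5938, 2739, 4504 and 3695 cells with 18649637, 19689924, 30462683 and 22943957 UMIs, and between 16 and 39 barcodes were shared by a pair of libraries. A cell was retained from 200 detected genes upward and up to a mitochondrial share of 50%, and the top Scrublet scores (scanpy 1.11.5) were removed at 0.8% per 1000 deposited cells (187, 48, 160 and 96 cells).

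Proximal tubule cells had at least 2 UMIs summed over Slc5a2, Slc7a13 and Gatm, and more of these than of any of 11 other marker lists. Other classes took the list with most UMIs, at least 2. Within each class the UMIs of a library were added up and scaled to CPM, with exact Poisson 95% intervals. Ratios are log2 of CPM + 1 with exact conditional binomial intervals, and shares carry Clopper-Pearson intervals. The ratio code was run on simulated Poisson counts, which is the model the intervals assume. That run checks the code and not whether the intervals hold for real cells. PCR, dissociation, animals and differences between cells are not in the intervals. The genes that entered a background count had at least 30 summed UMIs. TMM factors came from edgeR 4.0.16. Scripts ran in Python 3.11.15 with numpy 2.4.6, scipy 1.17.1 and pandas 2.3.3.

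The 5 endocytosis lists, the markers and the members were chosen with earlier results of these data known. Named from those lists were genes past 2-fold in a comparison, at most 4 a list, besides Lrpap1 and Hnf4a, picked after their values were seen, and genes from the 5 most like Lrp2 or Dab2 (at least 200 UMIs), some of which are not reported here. Alternatives varied the gate, mitochondrial limit, denominator, depth, doublets, pseudocount and fold. Leaving out leukocyte-marked cells, the early-cell gate, a combined mitochondrial setting and both intercalated splits were chosen after seeing the data.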

Additional observations from a re-analysis of the deposited data

How the results depend on the processing

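Lrp2, Clcn5 and Folr1 were lower on day 2 than in sham in all 18 settings run, with Lrp2 between -1.47 and -0.29, Folr1 between -1.30 and -0.25 and Clcn5 between -0.94 and -0.0024, the last of these near 0. Lrp2 (0.079 to 2.31), Amn (0.014 to 1.98) and Clcn5 (0.12 to 1.40) were above day 7 after reversal in all 18, at the low end by little. Among alternative ratios of single members in the proximal tubule, 268 stayed within the counting interval, 120 moved, and 20 changed sign where the ratio as reported had an interval that left out 0. Further changes of sign, in ratios whose interval held 0, are among the first 2 counts. No paired analysis was possible because each group has 1 library, and no library can be left out.

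Keeping cells with more markers of another class gave medians of -1.16, -1.15, 1.90 and -0.48 in the 4 comparisons, taken in the order of the text, with 4, 4 and 5 members past 2-fold in the first 3, and Amn at -0.44 in the last. That gate took 25.1% of day 7 cells in place of 3.55%. TMM gave medians of -0.71, -0.42, 0.71 and -0.35, 1 member (Lrp2) past 2-fold in reversed against day 7, Dab2 at -0.28 on day 2 and Amn at -0.25 in reversed against sham. A fold of 1.5 also counted 1 member in reversed against day 7. No share of all genes is given beside the counts of this paragraph. The shares in the text are for 2-fold with the gate and scaling used throughout.

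On day 2 against sham the median was -0.49 with the gate on the 12 reference genes, -0.53 with at most 20% mitochondrial UMIs, -0.52 with non-mitochondrial UMIs, -0.57 with both and -0.0014 after thinning. Dab2 was then at -0.50 (20% limit), -0.089 (non-mitochondrial), -0.55 (both) and -0.00051 (thinned), and thinning put Cubn at 0.14 and Amn at 0.023. For reversed against sham the median was -0.23, -0.28, -0.085 and -0.32 under the first 4, and Amn was at -0.18 (reference gate), -0.20 (20% limit) and -0.24 (both).

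On day 7 against day 2 the median was -0.34 without Havcr1 or Krt20 cells, 0.16 without leukocyte-marked cells and 0.19 in early cells. Lrp2 was at 0.36 without leukocyte-marked cells, 0.056 with the gate without Gatm and 0.018 after thinning. In reversed against day 7, dropping leukocyte-marked cells gave a median of -0.0047, Cubn at -0.088, Folr1 at -0.15 and Dab2 at -0.25. Folr1 was at -0.12 with the gate without Gatm and -0.023 in early cells, and Cubn at -0.46 after thinning. Dab2 in intercalated cells with more Slc4a1 was at -0.022 on day 7 against day 2. The cause was not tested for any of these. With 53 Clcn5 and 95 Cubn UMIs in the gate on day 7, counting error limits both genes there.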
